A study of Mus musculus with 2 samples.

Results

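The genes described here were 9 complement genes, chosen by name and read from both expression tables of the series. They comprised the classical pathway components C1ra, C1s1, C4b and C2, the central component C3, the alternative pathway component Cfb, and the regulators Serping1, Cd55 and Cd59a. All 9 were listed in both tables, among 21905 genes in each. The values came from single-cell RNA sequencing (10x, 3' chemistry) of cells from bone (femurs and tibias; female mice, 12 weeks old), taken 96 hours after vehicle (Veh) or doxorubicin at 10 mg/kg (Doxo), a chemotherapy drug that damages DNA. Per the labels, both suspensions had been depleted of CD45+, CD71+, Ter119+ and CD31+ cells, and no transgene or knockout allele was named for either. There was 1 library per condition, the number of mice behind each was not given in the sources used here, and so no difference between Veh and Doxo could be tested. Intervals below are 95% intervals for counting error only. A difference between the libraries may come from the mice, the preparation or the drug, which cannot be told apart.

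Complement is a cascade of secreted proteins that mark surfaces and recruit immune cells. The protease C1r activates the protease C1s, which cleaves C4 and C2. The products form the enzyme that cleaves C3, and factor B joins C3 fragments in the amplification loop of the alternative pathway. The C1 inhibitor, encoded by Serping1, stops C1r and C1s, whereas CD55 and CD59 sit on cell membranes and protect the cell itself, CD55 by breaking up the C3-cleaving enzymes and CD59 by blocking the terminal pore. The liver is the main source of the circulating components, and connective tissue cells also make them locally.

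Each library held 2488 cells, with 24859695 unique molecular identifiers (UMIs, counts of captured transcripts) in Veh and 20792012 in Doxo. The median cell had 8693 UMIs in Veh and 7347.5 in Doxo, and 4 cell barcodes occurred in both libraries. Cells were clustered on other genes, since the 9 genes and the rest of the pathway were left out, and clusters were named from marker genes. The 6 named classes, with their cells in Veh and in Doxo, were CXCL12-abundant reticular (CAR)-like stromal cells (369 and 427), bone and cartilage fibroblast (BCF)-like cells (1084 and 1344), arteriolar and endosteal fibroblast (AEF)-like cells (436 and 263), osteoblast-like cells (206 and 126), chondrocyte-like cells (246 and 204) and endothelial-like cells (103 and 69). A further cluster of 44 and 55 cells, led by Clic5, Tmem196 and Gpr1, stayed unnamed. The CAR-like cells carried all 10 CAR markers, among them Cxcl12, Lepr and Adipoq. Endothelial-like cells were present in spite of the CD31 depletion stated in the labels. Ptprc, which encodes CD45, had a UMI in 19 Veh and 14 Doxo cells (0.764% and 0.563%), and the source of these UMIs was not tested. Transcripts of red blood cells were far more abundant in the Veh library, where the 4 erythroid markers summed to between 103.4 and 594 CPM (UMIs per 1000000 UMIs of the class) by class, against 0 to 11.4 in Doxo.

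Several of these genes lie together in the mouse genome. On GRCm38 (GENCODE M21), C4b (chr17:34728380-34743882), Cfb (chr17:34856374-34862518) and C2 (chr17:34862604-34898265), all on the minus strand, fall in one stretch of chromosome 17, with 85 bases between Cfb and C2 and 112491 between C4b and Cfb. C1ra (chr6:124512405-124523443, plus strand) and C1s1 (chr6:124530345-124542359, minus strand) lie 6901 bases apart on opposite strands. C3 is elsewhere on chromosome 17 (chr17:57203970-57228136, minus strand), Serping1 and Cd59a are both on chromosome 2 (chr2:84765387-84775444, minus strand, and chr2:104095801-104115354, plus strand), and Cd55 is on chromosome 1 (chr1:130439027-130462744, minus strand).

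The 120 bases before the start site are shown for 4 of the genes, because C1ra and C1s1 share a pattern over the classes, C3 was the secreted gene with the largest difference in CAR-like cells, and Cd55 had a pattern of its own. They are RefSeq sequences on GRCm38.p6, written 5′ to 3′ on the strand of the gene, at chr6:124512501-124512620 (plus), chr6:124542360-124542479 (minus), chr17:57228137-57228256 (minus) and chr1:130462745-130462864 (minus). Capitals mark matches to a minimal NF-kappaB letter pattern (GGG, any 5 bases, CC), read on both strands, with overlapping matches run together.
C1ra: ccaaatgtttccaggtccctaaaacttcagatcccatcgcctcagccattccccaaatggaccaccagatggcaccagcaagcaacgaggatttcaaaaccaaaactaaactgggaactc
C1s1: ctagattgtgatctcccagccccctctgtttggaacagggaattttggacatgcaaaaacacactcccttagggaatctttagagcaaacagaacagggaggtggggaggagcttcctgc
C3: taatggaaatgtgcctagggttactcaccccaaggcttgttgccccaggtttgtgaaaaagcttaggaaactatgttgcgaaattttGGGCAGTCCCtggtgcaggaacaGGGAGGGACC
Cd55: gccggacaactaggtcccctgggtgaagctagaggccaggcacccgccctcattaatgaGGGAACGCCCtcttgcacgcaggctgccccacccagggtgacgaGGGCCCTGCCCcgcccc
This pattern is common, being present in 50.8% of 32851 promoter windows that run from 250 bases before to 50 bases after a start site. Windows were matched for 5 of the 9 genes, with 2 windows for C1s1. In the window of the C1s1 start shown, the NF-kappaB pattern matched at 3 bases after the start. For the other C1s1 start, with its 120 bases at chr6:124542322-124542441, the same match lay at -35. In the whole windows, TTNNGCAAT (a C/EBP pattern, in 2.18% of windows) matched once in C1s1, at -242 from the start, and GAAA, any 2 bases, GAAA (the core of an interferon-stimulated response element, 3.44%) matched once in Cd59a, at -187. TTCNNNGAA (a STAT pattern, 8.3%) matched only in C1ra, at 32 bases after the start, and TGANTCA (an AP-1 pattern, 7.81%) matched in none of the 5. These matches describe letters and are not evidence of binding.

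In CPM, the 7 secreted genes were highest in CAR-like cells and in AEF-like cells. In Veh, all 7 (C1ra, C1s1, C2, C3, C4b, Cfb and Serping1) had their highest level in CAR-like cells, and AEF-like cells came next for each. Taking CAR-like cells by UMIs of 2 or more CAR marker genes, in place of clusters, gave a broader set. It held 794 Veh and 771 Doxo cells, against 369 and 427 by clusters. The set thus included cells that the clusters placed in other classes, and is not a like-for-like check of the order. C4b and Serping1 alone of the 7 had their highest Veh level in that set. With clusters kept and cells thinned to 2000 UMIs, C1s1 was not highest in CAR-like cells in Veh. In Doxo, by clusters, CAR-like cells came first and AEF-like cells next for 6 of the 7, and C1s1 was highest in AEF-like cells. For C1s1 in Veh and for C3 in Doxo the intervals of the leading pair of classes overlapped. The 2 membrane regulators followed other orders: Cd55 was highest in the unnamed cluster, and Cd59a in endothelial-like and osteoblast-like cells.

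**Figure D1:**
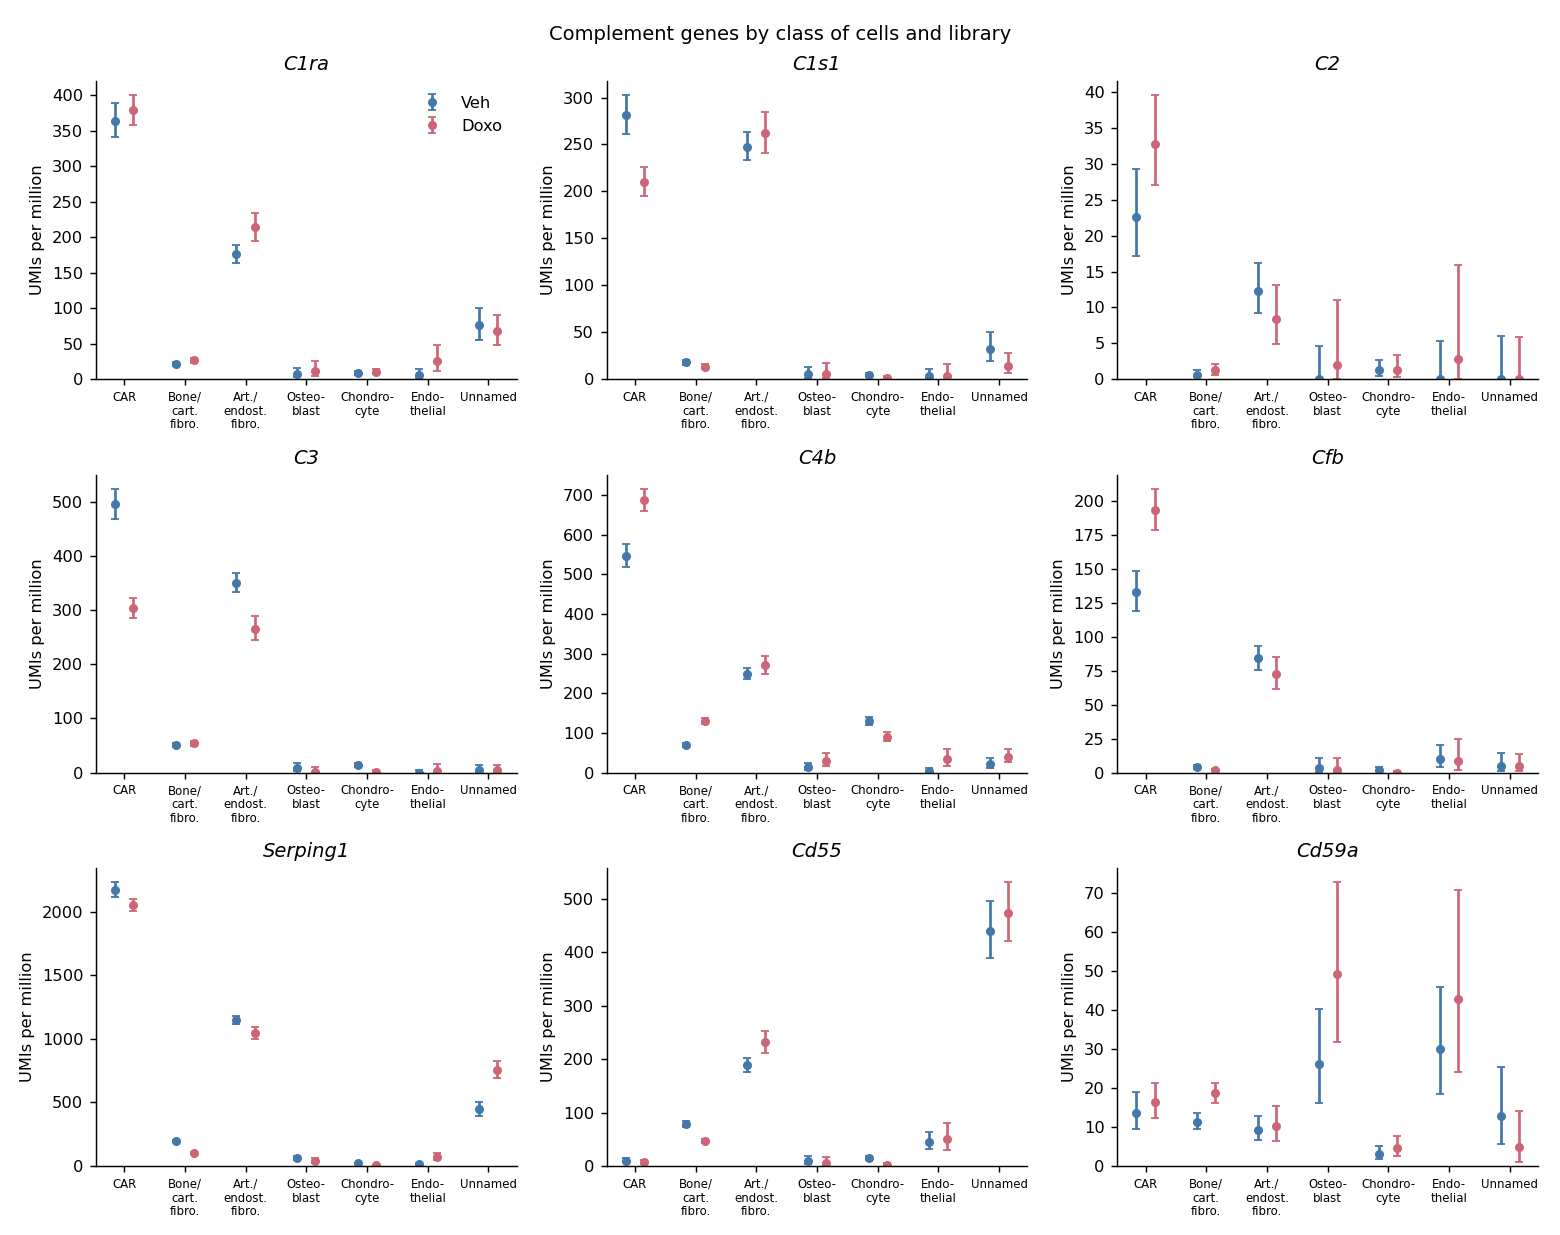
Level of each gene (CPM, linear axes that differ between panels) in the 6 named classes (abbreviated on the axis) and the unnamed cluster, with Veh in blue and Doxo in red; bars are 95% intervals for counting error and each point is 1 library. Serping1 in CAR-like cells stood at 2173 in Veh and 2053 in Doxo, whereas Cd55 peaked in the unnamed cluster at 439 and 474.

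C1ra and C1s1, the proteases that start the classical pathway, shared their classes but not their difference between the libraries. C1ra in CAR-like cells was at 364 CPM in Veh (interval 340.9 to 388.5) and 379 in Doxo (358 to 400.2), a log2 ratio of Doxo to Veh of 0.06 (-0.07 to 0.18). C1s1 in the same cells was at 281 in Veh (261 to 302.5) and 210.3 in Doxo (195 to 226), a log2 ratio of -0.42 (-0.57 to -0.27). The C1ra intervals overlapped, and those of C1s1 lay apart. With cells thinned to 2000 UMIs, C1ra was at 0.30 (0.06 to 0.55) and C1s1 at -0.25 (-0.55 to 0.06). At that depth the interval of C1s1, and not that of C1ra, held 0. In AEF-like cells C1ra was at 176 in Veh and 214 in Doxo (log2 ratio 0.28, 0.11 to 0.45). C1s1 there was at 248 and 262 (0.08, -0.07 to 0.23), with overlapping intervals. BCF-like cells held far less of both, with C1ra at 20.8 and 26.3 (log2 ratio 0.34, 0.09 to 0.60) and C1s1 at 17.8 and 13.4 (-0.41, -0.74 to -0.10). C1s1 was thus lower in the Doxo library in both CAR-like and BCF-like cells. In the unnamed cluster C1ra had 47 UMIs in Veh and 42 in Doxo. In chondrocyte-like cells it had 42 and 33, at 8.64 and 10.7 CPM. Osteoblast-like and endothelial-like cells had between 1 and 9 UMIs of either gene per library. Over the last 500 bases of the transcripts, 23.4% of the 31-base words of C1ra occur in its neighbour C1rb and 27.7% of those of C1s1 occur in C1s2. The tables held 2 and 1 UMIs of C1rb and 0 and 2 of C1s2 in the CAR-like cells of Veh and Doxo.

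C4b and C2, which encode the substrates of C1s, were both at higher CPM in the CAR-like cells of the Doxo library. C4b had 1374 UMIs in Veh and 2302 in Doxo, or 546 CPM (518 to 576) and 688 (660 to 716), a log2 ratio of 0.33 (0.24 to 0.43). C2, with far fewer counts, had 57 and 110 UMIs, or 22.7 (17.2 to 29.4) and 32.9 (27 to 39.6), a log2 ratio of 0.53 (0.06 to 1.02). For C2 the separate intervals overlapped, while the interval of the ratio lay just above 0. With cells thinned to 2000 UMIs the C2 ratio was 0.48 (-0.39 to 1.43) on 48 UMIs, and its interval held 0. Among the classes with at least 50 C4b UMIs, the largest ratio in size was in BCF-like cells, at 70.6 (65.7 to 75.7) in Veh and 129.9 (123.2 to 137) in Doxo, a log2 ratio of 0.88 (0.75 to 1.01). There 14.5% of cells in Veh and 20% in Doxo had a C4b UMI. In AEF-like cells C4b was at 249.6 and 271 (log2 ratio 0.12, -0.03 to 0.26), and without cells with any UMI of S100a8, Lyz2 or a globin the ratio was 0.84 (0.57 to 1.14). Chondrocyte-like cells went the other way, at 131 in Veh and 91 in Doxo (-0.52, -0.73 to -0.32), and C4b was the only secreted gene of the 7 with over 200 UMIs in both libraries there. C2 was rare outside CAR-like cells, with 53 and 18 UMIs in AEF-like cells (log2 ratio -0.54, -1.42 to 0.23) and 7 and 13 in BCF-like cells. In the unnamed cluster C2 had 0 UMIs in both libraries, where 3 UMIs would be 4.85 and 4.8 CPM. C4b has a near copy, C4a, 65209 bases away, which holds 57.7% of the 31-base words at the end of the C4b transcript. C4a had 1 UMI in Veh and 0 in Doxo in CAR-like cells, and reads shared by the copies may have been given to C4b or dropped.

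C3, the component on which all routes converge, was lower in the CAR-like cells of the Doxo library. It had 1248 UMIs in Veh and 1017 in Doxo, or 496 CPM (469 to 524) and 304 (285 to 323), a log2 ratio of -0.71 (-0.83 to -0.59) or 1.63-fold lower in Doxo. A C3 UMI was found in 64% of cells in Veh (58.8 to 68.9) and 56.4% in Doxo (51.6 to 61.2), although the Doxo CAR-like cells were the deeper ones, with a median of 7310 UMIs against 6226. With every cell thinned to 2000 UMIs the shares were 46% (40.7 to 51.4) and 34.6% (30 to 39.4). In AEF-like cells C3 was at 350.2 in Veh and 266 in Doxo (log2 ratio -0.40, -0.54 to -0.26). Without the cells that held any UMI of S100a8, Lyz2 or a globin (1890 Veh and 592 Doxo cells over all classes), that ratio turned to 0.58. Its direction thus depended on which cells were kept. In BCF-like cells C3 stood at 50.6 and 54.4 (0.10, -0.07 to 0.27), with overlapping intervals. Chondrocyte-like cells had 70 UMIs in Veh and 6 in Doxo, 26 of the 70 in 1 cell. Osteoblast-like cells had 7 and 1 UMIs, endothelial-like cells 0 and 1.

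Cfb, which encodes factor B, was higher in the CAR-like cells of Doxo and lower in the BCF-like cells. In CAR-like cells it had 335 UMIs in Veh and 648 in Doxo, or 133 CPM (119 to 148) and 194 (179 to 209), a log2 ratio of 0.54 (0.35 to 0.73). In BCF-like cells it had 44 and 18 UMIs, or 3.98 and 1.68 CPM, a log2 ratio of -1.22 (-2.12 to -0.42). The opposite directions were not tested against each other, and the fibroblast value rests on few counts. With finer clusters the BCF-like ratio was -0.76 (-1.79 to 0.15). With cells thinned to 2000 UMIs the ratio was 0.30 (-0.07 to 0.67) in CAR-like cells and -1.13 (-2.9 to 0.38) in BCF-like cells. Both of these intervals held 0. In AEF-like cells Cfb was at 84.4 in Veh (75.9 to 93.5) and 72.9 in Doxo (61.9 to 85.2), with overlapping intervals. Chondrocyte-like cells had 10 UMIs in Veh and 0 in Doxo, at least 2.12-fold lower when 3 UMIs are put in place of 0. Cfb UMIs were found in 36.3% of Veh and 48.2% of Doxo CAR-like cells, or in 22.4% (18.2 to 27.2) and 25% (20.9 to 29.5) at 2000 UMIs per cell, where the intervals overlapped. The annotation also holds a read-through gene, Gm20547, that spans Cfb and part of C2 and shares 91.9% of the 31-base words at the end of Cfb; it was not analysed here.

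Serping1, the C1 inhibitor gene, was found in nearly every CAR-like cell of both libraries. It was at 2173 CPM in Veh (2116 to 2231) and 2053 in Doxo (2005 to 2102), a log2 ratio of -0.08 (-0.13 to -0.03), with a UMI in 95.1% and 98.4% of cells. The ratio is close to 0, and weighing each cell the same gave 0.00, while taking CAR-like cells by marker genes gave 0.12. In AEF-like cells it was at 1145 and 1045 (log2 ratio -0.13, -0.21 to -0.06). BCF-like cells showed the largest difference of Serping1 among the 3 stromal classes, at 195 in Veh (187 to 204) and 102 in Doxo (96.3 to 109), or 1.91-fold lower (log2 ratio -0.93, -1.04 to -0.83). Of these cells, 35.3% had a Serping1 UMI in Veh and 26.5% in Doxo. The unnamed cluster went the other way, at 447 and 757 (0.76, 0.54 to 0.98), but 1 Doxo cell held 177 of its 473 UMIs, and without the cell with most UMIs in each library the log2 ratio was 0.53. It was 0.12 without the top 5% of cells by UMIs and turned to -0.74 without cells with S100a8, Lyz2 or globin UMIs, so its direction depended on which cells were kept.

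Cd55 and Cd59a, the membrane regulators, were scarce in CAR-like cells. Cd55 there had 26 UMIs in Veh and 24 in Doxo, 10.3 and 7.17 CPM, and a UMI in 5.96% and 3.28% of cells. The unnamed cluster held 439 CPM in Veh (389 to 495) and 474 in Doxo (421 to 531), with a UMI in 84.1% and 78.2% of cells, and the interval of its log2 ratio (0.11) ran from -0.13 to 0.35. AEF-like cells came next at 189 (176 to 202) and 232 (212 to 253), a log2 ratio of 0.30 (0.13 to 0.46). With these cells thinned to 2000 UMIs the ratio was 0.21 (-0.16 to 0.56), and 38.3% of them in Veh and 31.9% in Doxo had a Cd55 UMI before thinning. BCF-like cells were lower in Doxo, at 79 (73.8 to 84.4) and 46.5 (42.5 to 50.8), a log2 ratio of -0.76 (-0.93 to -0.60). The CPM of Cd55 was thus lower in the Doxo library in BCF-like cells and higher in AEF-like cells, where the interval held 0 when thinned. Endothelial-like cells had 45.7 and 51.4 CPM, on 32 and 18 UMIs. Cd59a had its highest levels in endothelial-like cells, at 30 (18.6 to 45.8) and 42.9 (24 to 70.7), and in osteoblast-like cells, at 26.2 (16.2 to 40.1) and 49.3 (31.9 to 72.7), which could not be put in order. In BCF-like cells Cd59a had 126 and 199 UMIs, 11.4 and 18.6 CPM (log2 ratio 0.71, 0.38 to 1.04). The CAR-like level was 13.5 and 16.4 (0.27, -0.36 to 0.94). Chondrocyte-like cells had the least in both libraries, at 3.09 and 4.52. An antisense gene, Gm16083, overlaps Cd55 and another, Gm16567, overlaps C1s1. Whether the counting used strand is not given in the sources used here.

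**Figure D2:**
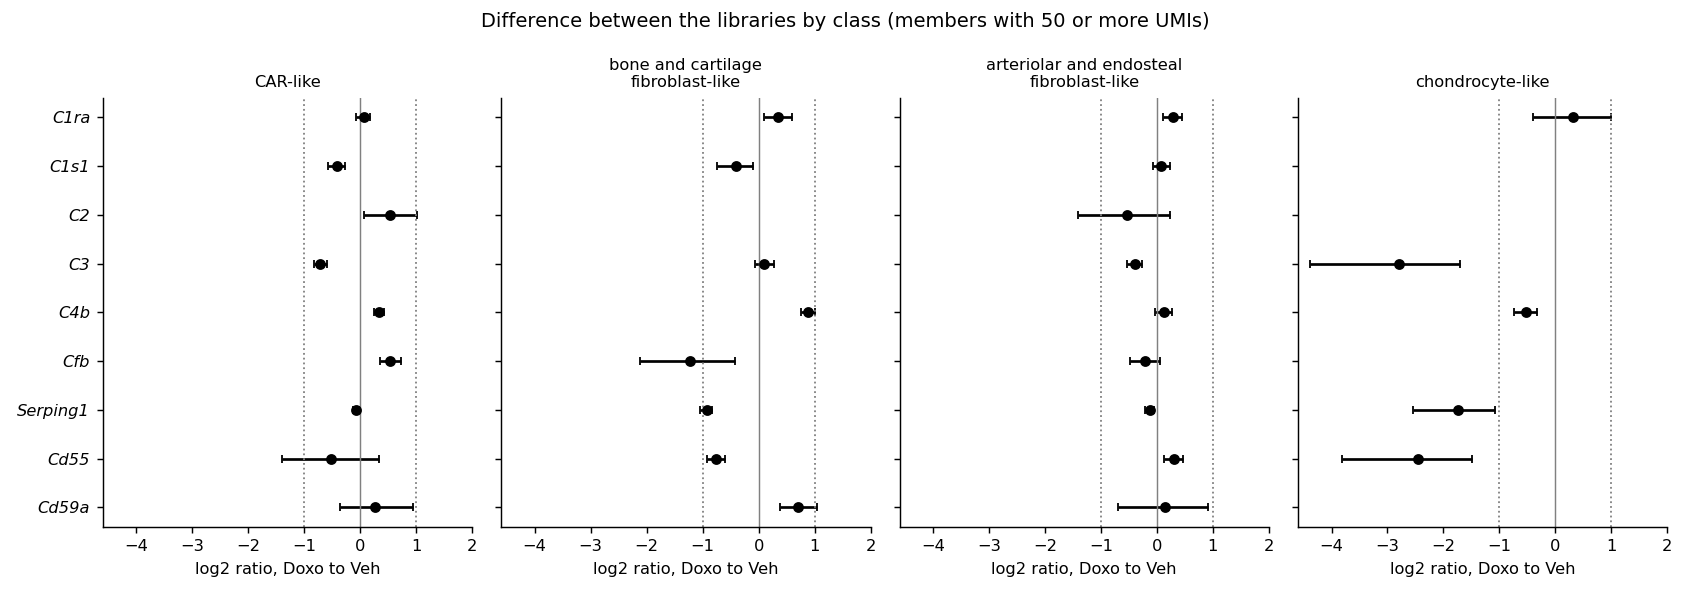
Log2 ratio of Doxo to Veh for each gene with 50 or more UMIs in 4 classes of cells; bars are 95% intervals for counting error and dotted lines mark 2-fold. In CAR-like cells all 9 points lay between -0.71 (C3) and 0.54 (Cfb), and in BCF-like cells C4b was at 0.88 and Serping1 at -0.93.

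As a group the 9 genes did not move one way in CAR-like, BCF-like or AEF-like cells. In CAR-like cells 5 of 9 were above 0 and their median log2 ratio was 0.06, against 0.05 over all 9476 genes with at least 50 UMIs (quartiles -0.21 and 0.32). None of the 9 differed by 2-fold, where 2.42% of all genes were at least 2-fold higher in Doxo and 2.33% at least 2-fold lower. By 1.5-fold, C3 alone was lower, against 8.01% of all genes, and none was higher, against 10.2%. In BCF-like cells 8 of the 9 had 50 UMIs. Of these, 1 (Cfb) was 2-fold lower and none 2-fold higher, against 1.71% and 0.743% of 11300 genes, and with every cell weighing the same, 20 principal components or finer clusters none was 2-fold lower. By 1.5-fold, C4b and Cd59a were higher (2.69% of all genes) and Cfb, Serping1 and Cd55 lower (6.24%). The median of all 9, with C2 (0.90) on 7 and 13 UMIs, was 0.10, and that of all genes with at least 50 UMIs was -0.08. These medians are over unlike sets, so no order is read from them. AEF-like cells had none of 9 past 2-fold in either direction, against 0.74% higher and 2.11% lower of 9195 genes, and a median of 0.08 against -0.01. With so few genes, nothing particular to them is read from these counts. The 3 sparser classes had few of the genes: 1 with 50 UMIs in osteoblast-like cells, 1 in endothelial-like cells and 3 in the unnamed cluster, none past 2-fold. Of all genes there, 1.67%, 2.31% and 1.73% were 2-fold higher and 4.09%, 1.98% and 1.36% lower. By 1.5-fold, Serping1 was higher in the unnamed cluster, against 8.14% of all genes, and none was lower, against 7.07%.

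In chondrocyte-like cells the genes other than C4b came from few cells. Of the 5 genes with at least 50 UMIs, C3, Serping1 and Cd55 were at least 2-fold lower in Doxo and none was higher, against 3.89% and 2.88% of 8442 genes. Over all 9 the median log2 ratio was -1.18, with 3 genes above 0, against 0.04 over those 8442 genes. The medians are over unlike sets, since only 5 of the 9 had 50 UMIs. C3 was at 14.4 and 1.94 CPM (log2 ratio -2.79, -4.39 to -1.70), Cd55 at 15 and 2.58 (-2.46, -3.81 to -1.49) and Serping1 at 22 and 6.45 (-1.74, -2.54 to -1.07). A UMI was found in 4.88% of Veh and 2.45% of Doxo cells for C3, 7.72% and 3.92% for Cd55, and 8.13% and 5.39% for Serping1. In endothelial-like cells the shares were 0% and 1.45% for C3 and 6.8% and 7.25% for Serping1. Single Veh cells held 35 of the 73 Cd55 UMIs and 20 of the 107 Serping1 UMIs, and without the cell with most UMIs in each library the ratios were -2.67 for C3, -1.70 for Cd55 and -2.17 for Serping1. Without the top 5% of cells by UMIs, C3 was at -0.62 (-3.33 to 1.38) and Serping1 at -0.93 (-1.96 to -0.05), and with cells thinned to 2000 UMIs Serping1 was at -0.59 (-4.21 to 2.06) on 6 UMIs. Under each of these 2 settings 2 genes in place of 3 were at least 2-fold lower. Without the top 5% they were Cd55 (-2.80) and C4b (-1.07, -1.35 to -0.79). When thinned they were Cd55 (-1.62) and C3 (-3.20, on 5 UMIs). The 10 AEF markers summed to 164 CPM in the Veh and 66.1 in the Doxo chondrocyte-like cells, with Pi16 at 0 in Veh and Dpp4 at 0 in Doxo. The 10 CAR markers summed to 563 and 372. Their part in the result was not tested.

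Endothelial-like cells had few UMIs of the secreted genes, and 1 cell carried most of what the Doxo library had. C4b had 3 UMIs in Veh and 12 in Doxo, and all 12 were in the same cell. That cell also held 21 of the 25 Serping1 UMIs and 426 of the 998 UMIs of the CAR markers in the Doxo endothelial-like cells.

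The classes that supplied each transcript differed between the libraries. CAR-like cells held 43.8% of all Cfb UMIs in Veh and 78.1% in Doxo, 42.1% and 63.9% of Serping1, 35.3% and 49.9% of C4b, and 36.8% and 46.6% of C3. AEF-like cells held 47.4% and 18.9% of Cfb, 37.8% and 20.9% of Serping1, 27.5% and 12.6% of C4b, and 44.3% and 26.2% of C3. BCF-like cells held 20.1% and 30.2% of C4b and 16.5% and 26.7% of C3. In Doxo they thus held more C4b and C3 UMIs than AEF-like cells. They held 16.6% and 10.2% of Serping1 and 5.76% and 2.17% of Cfb. Chondrocyte-like cells held 16.3% and 6.12% of C4b. These shares move with the number and the depth of the cells of each class. CAR-like cells were 14.8% of cells in Veh and 17.2% in Doxo, AEF-like cells 17.5% and 10.6%, and BCF-like cells 43.6% and 54%. Of 24859695 UMIs of all genes in Veh and 20792012 in Doxo, CAR-like cells held 2515787 and 3347733. AEF-like cells held 4291263 and 2154725. The part of this in the shares was not tested. CAR-like cells held 1.24% and 1.78% of Cd55 UMIs and 12.8% and 16.5% of Cd59a UMIs.

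**Figure D3:**
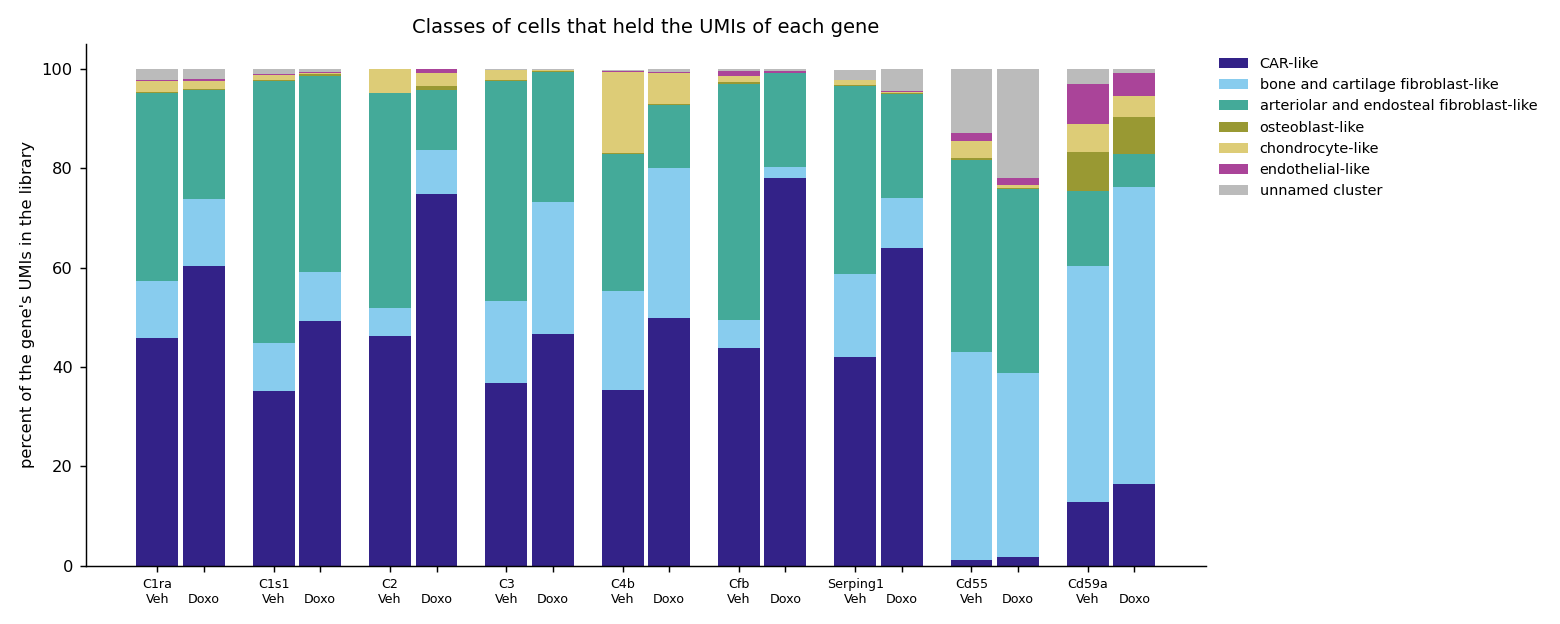
Percent of the UMIs of each gene held by each class of cells in the Veh and the Doxo library (stacked bars, linear axis). CAR-like cells held 46.3% of C2 UMIs in Veh and 74.8% in Doxo, and the unnamed cluster held 13% and 22% of Cd55 UMIs.

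Most CAR-like cells carried several of the secreted genes at once. At least 4 of the 7 had a UMI in 75.3% of CAR-like cells in Veh and 79.2% in Doxo, and none of the 7 in 1.63% and 0.234%. At 2000 UMIs per cell the shares with at least 4 were 37.2% and 35.8%. AEF-like cells had at least 4 in 39.7% and 39.9% of cells (17% and 12.9% at 2000 UMIs), and BCF-like cells in 2.4% and 1.56%. In osteoblast-like cells, whose median depth was 3077.5 and 2940 UMIs, none of the 7 was found in 81.1% and 77% of cells. The share of cells with a UMI in endothelial-like cells, at median depths of 6326 and 4629 UMIs, gives a background: C1ra had 3.88% and 8.7%, C4b 2.91% and 1.45%, and C3 0% and 1.45%, against 76.2% and 85.5%, 82.9% and 89%, and 64% and 56.4% in CAR-like cells.

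The spread within classes also differed by gene. Among AEF-like cells, the 10% of cells with most UMIs of a gene held 77.4% of C3 in Veh and 74.9% in Doxo, 74.7% and 75% of C4b, and 76.9% and 82.2% of Cd55. The same measure gave 36.9% and 36.5% for C1s1 and 35.6% and 36.8% for Serping1. C1s1 and Serping1 were thus spread over most cells of the class, and C3, C4b and Cd55 were held by a minority. In CAR-like cells the values were 31.5% and 28.2% for C4b and 48.7% and 48.9% for C3.

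Clustered alone, CAR-like cells formed 3 populations, and the main differences held in both of the larger ones. Population 1 (187 Veh and 337 Doxo cells) was led by Slc36a2, Fabp4 and Cd83 and also had the osteoblast markers Bglap2 and Bglap among its 10 leading genes, population 2 (172 and 77 cells) by the chemokine genes Ccl7, Ccl2 and Cxcl1, and population 3 (10 and 13 cells) by genes of fibroblasts such as Msmp and Angptl7. C3 was lower in Doxo in population 1, at 523 (480 to 569) and 300.5 (279 to 323), and in population 2, at 488 (451 to 527) and 329 (285 to 378), with log2 ratios of -0.80 and -0.57. C4b was higher in Doxo in both, with ratios of 0.29 (0.15 to 0.42) and 0.26 (0.08 to 0.44), and so was Cfb, at 0.29 (0.04 to 0.55) and 0.67 (0.30 to 1.03). C1s1 differed in population 1, at 310.3 and 209.7 (-0.57, -0.77 to -0.36), and in population 2 stood at 275 and 258 with an interval of the ratio from -0.37 to 0.18. C2, on few UMIs, was at 0.32 (-0.32 to 1.04) in population 1 and 0.88 (0.06 to 1.67) in population 2. Whether the populations differ in these ratios was not tested. Serping1 was near 0 in population 1 (-0.01) and at -0.15 (-0.24 to -0.05) in population 2. Markers of other cells differed between the libraries in CAR-like cells. Among them were the 8 immune markers, at 523 CPM in Veh and 77.7 in Doxo, of which 1 Veh cell held 1146 of 1315 UMIs (67.7 and 69.5 without the top cell of each library), the 4 erythroid markers, at 442 and 2.39, with Alas2 at 0 in Doxo, and the 8 osteoblast markers, at 8199 and 2311 (9788 and 2398 in population 1). The 10 AEF markers, at 161 and 78.9, and the 4 synovial lining markers, at 1593 and 707, were also lower in Doxo by 2-fold or more, and the 6 pericyte or smooth muscle markers were higher, at 149 and 332. The part of these markers in the CAR-like values was not tested. The Veh cell with most immune UMIs held 5 of the 1248 C3 UMIs and 11 of the 1374 C4b UMIs. Without any cell with a UMI of S100a8, Lyz2 or a globin, 73 Veh and 322 Doxo CAR-like cells were left, and there C3 was at a log2 ratio of -0.91 and Cfb at 0.88.

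**Figure D4:**
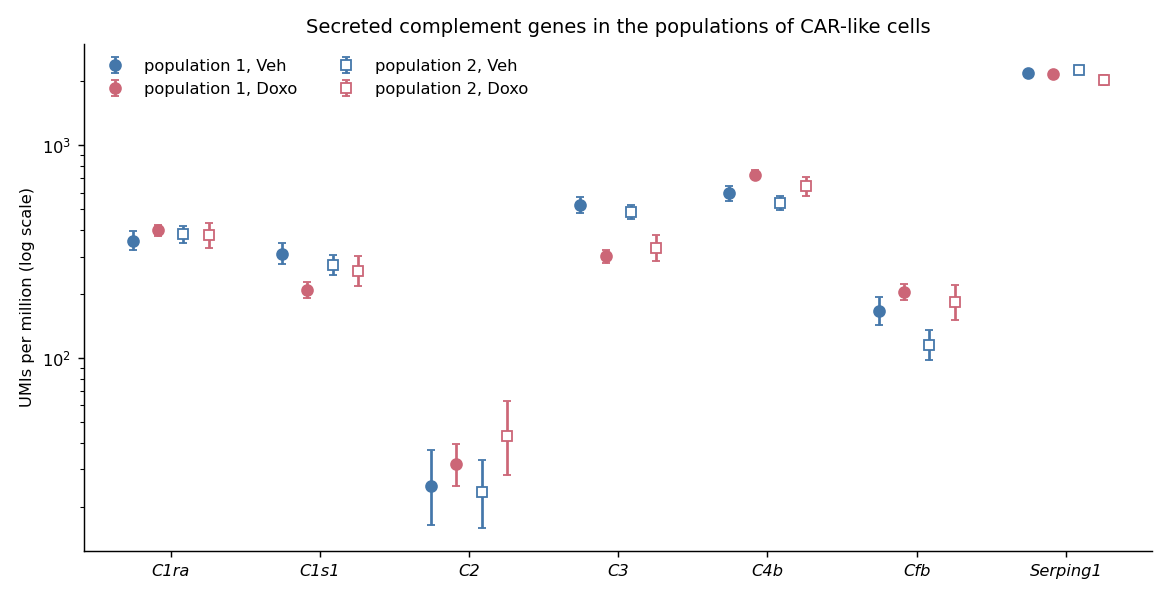
Level of the 7 secreted genes (CPM, log axis) in populations 1 (filled circles) and 2 (open squares) of the CAR-like cells, Veh in blue and Doxo in red, with 95% intervals for counting error. C3 was lower in the Doxo library in both populations (300.5 against 523 and 329 against 488), and C4b was higher (728 against 597 and 644 against 537).

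BCF-like cells were not uniform either. At a finer resolution 3 clusters held most of the class: one led by Angptl7 and Npy (681 Veh and 792 Doxo cells), one led by Msmp and Rbp4 (337 and 508) and one led by Chodl and Ptx4 (57 and 39). Taken alone, the Msmp cluster had too few markers to be named, and its 10 leading genes held the osteoblast marker Ibsp and no BCF marker. Without it, C4b in BCF-like cells was at a log2 ratio of 1.16 (0.92 to 1.41). C4b belonged mainly to the Msmp cluster, at 162 CPM in Veh and 234 in Doxo (log2 ratio 0.53, 0.38 to 0.68). In the Angptl7 cluster it was at 29 and 63.9 (1.14, 0.90 to 1.39). C4b was thus higher in Doxo within each of these clusters. Most Serping1 and Cd55 UMIs were in the Angptl7 cluster, where Serping1 was at 274 and 149 (-0.88, -0.99 to -0.77) and Cd55 at 116 and 77.2 (-0.59, -0.75 to -0.43). In the Msmp cluster Serping1 was at 25.2 and 27.7 (0.13, -0.27 to 0.55) and Cd55 at 10.2 and 2.61 (-1.92, -3.09 to -0.96). The Chodl cluster had Serping1 at 304 and 155 (-0.95, -1.63 to -0.35) and 3 and 1 UMIs of Cd55. The AEF markers, which mark the class with the higher Serping1 and Cd55 levels, summed to 792.5 in Veh and 486 in Doxo in the whole class, with all 10 found in both, and their part in the lower Serping1 and Cd55 was not tested.

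**Figure D5:**
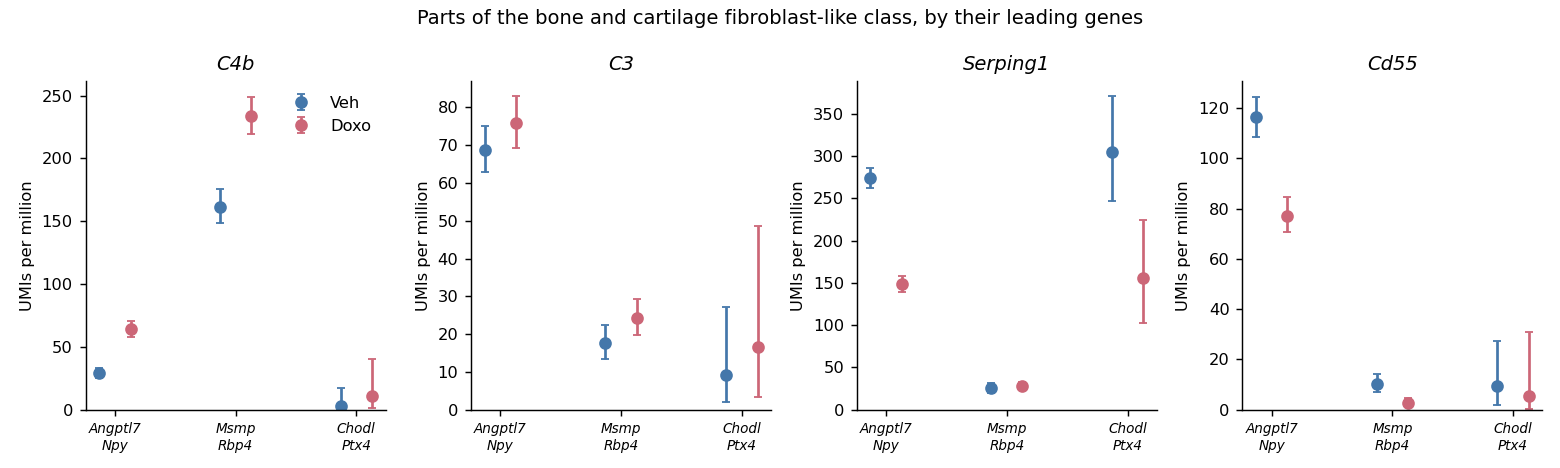
C4b, C3, Serping1 and Cd55 (CPM, linear axes) in the 3 clusters of the BCF-like class, named by leading genes, with Veh in blue, Doxo in red and 95% intervals for counting error. C4b was highest in the Msmp cluster (162 and 234), and Serping1 was lower in Doxo in the Angptl7 and Chodl clusters (149 against 274 and 155 against 304).

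Of 49 further genes of the pathway, 44 were in the tables. In CAR-like cells 11 of them had 0 UMIs in both libraries, among them C1qa, C1qb and C1qc, which encode the recognition subunit of C1 and are made by macrophages, and Hc, C7 and C9 of the terminal pathway. Another 13 had at least 50 UMIs, of which 1 was at least 2-fold higher in Doxo and 5 were at least 2-fold lower (2.42% and 2.33% of all genes there), with a median log2 ratio of -0.18. The largest 4 were Thbd (thrombomodulin) with 371 UMIs in Veh and 163 in Doxo (-1.60, -1.87 to -1.33), Colec11 (a collectin of the lectin pathway) with 54 and 29 (-1.30, -2.01 to -0.63), C5ar2 (a C5a receptor) with 40 and 128 (1.25, 0.74 to 1.82) and Cfd (factor D, which cleaves factor B) with 158 and 88 (-1.25, -1.65 to -0.87). The others past 2-fold were Csmd1 (-1.13), which encodes a membrane regulator, and Cd93 (-1.11). Clu, whose product clusterin also blocks the terminal complex, had 2481 and 5143 (0.64, 0.57 to 0.71). C6 was at 37.4 and 37.6 CPM, Colec12 at -0.09, Cr1l at -0.06, C1qbp at -0.18 and C1rl at -0.76 on the log2 scale.

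For each gene, the 3 genes with the most similar profile were found by Pearson's r of log2(CPM + 10) over 14 points, the 7 classes in both libraries, among 10694 genes. The points share libraries and the classes differ in depth, so r is a description. C1ra was most like Ncald (0.969), Naalad2 and Fstl1, and Serping1 was most like Ncald (0.968), Rarres2 and Fstl1. C1s1 was most like Fbn1 (0.981), Twist2 and Glipr2, and C3 most like Fbn1 (0.955), Ptgfr and Apbb1ip. Cfb went with Svep1 (0.973), Cpxm1 and Igf1, C2 with Notch3 (0.974), Mdk and Aoc3, and C4b with Emb (0.941), Gpm6b and Maob. Cd55 went with Lmo1 (0.974), Vat1 and Fam124a, and Cd59a with Dvl1 (0.934), Pald1 and Lrp5. Between the 9 genes, r was 0.949 for C1ra with C1s1, for C1ra with Serping1 and for C2 with Cfb, and was between -0.418 and 0.429 for every pair of Cd55 or Cd59a with another of the genes.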

How the data were processed

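Per the labels, RNA of bone-resident cells was sequenced in 1 Veh and 1 Doxo library on 10x 3' chemistry. The submitters' processing notes name Cell Ranger, Partek, GRCm38 and mm10, with no versions or annotation release. The deposited values are log2 values: as the spacing of the values within a cell shows, the authors scaled counts to 1000000 in each cell, took logarithms, scaled the result to 1000000 again and took log2(1 + value). Both rounds were undone and values turned back into UMIs, taking the most common lowest level in a cell as 1 UMI, and 99.944% (Veh) and 99.939% (Doxo) of values up to 50 UMIs came out whole within 0.05. No cell failed the study's filters (200 to 10000 genes, 100 to 100000 UMIs, at most 10% mitochondrial UMIs). No doublet caller was run and possible doublets were kept. The lowest cell had 1506 UMIs.

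Cells were clustered with Seurat 5.3.0 in R 4.3.3 (2000 variable genes without complement genes, 35 principal components, resolution 0.1, and 0.2 within CAR-like cells and for finer fibroblast clusters). The resolution within CAR-like cells was the lowest, raised in steps of 0.05, that gave at least 3 clusters. A class needed 3 markers among those found in at least 10% of its cells. The rest used Python 3.11.15, numpy 2.4.6, scipy 1.17.1, pandas 2.3.3 and matplotlib 3.10.9.

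UMIs were summed per class and library. Levels have exact Poisson intervals, shares of cells exact binomial (Clopper-Pearson) intervals, and log2 ratios exact conditional binomial intervals with 0.5 UMI added to each sum, all at 95% and for counting error only. A count of 0 was put at 3 UMIs for bounds. No test was made, since each condition had 1 library. The genes named are the 9 genes, pathway genes with at least 50 UMIs in CAR-like cells (the 4 largest ratios with UMIs, and 1 not reported here) and the 3 genes most correlated with each of the 9. Names outside that rule (near copies, antisense genes, markers, leading genes of clusters, and pathway genes at 0 UMIs) were chosen after values were seen. The genes, lists and markers were chosen with earlier results of these data known. The scripts were tested on simulated data. Alternatives changed the weighing, thinning, clustering, filters, scaling and added UMIs. Of the 7 classes only those with counts are described per gene. Promoter sequences came from a RefSeq table on GRCm38.p6.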

Additional observations from a re-analysis of the deposited data

Results flagged for a closer look

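Some genes had ratios of opposite sign in different classes of cells. C4b had a log2 ratio of Doxo to Veh of 0.88 in BCF-like cells and of -0.52 in chondrocyte-like cells. Cfb was at 0.54 in CAR-like cells and at -1.22 in BCF-like cells, the latter on 44 and 18 UMIs. With cells thinned to 2000 UMIs both Cfb intervals held 0. Serping1 was at 0.76 in the unnamed cluster, and at -0.93 in BCF-like cells and -1.74 in chondrocyte-like cells. The value in the unnamed cluster turned to -0.74 without cells with S100a8, Lyz2 or globin UMIs, and the chondrocyte-like value was -0.59 (-4.21 to 2.06) with cells thinned to 2000 UMIs. With 1 library per condition the difference between the classes was not tested for any of the 3 genes.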

How the results depend on the processing

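No paired analysis was possible because there was 1 library per condition, and no replicate could be left out. Of 682 ratios of single genes recomputed, 614 moved by less than their interval, 64 moved by more and 4, from genes with at least 50 UMIs and an interval clear of 0, changed direction. Among the 614 and the 64, 56 changed sign, all from values with an interval across 0 or on fewer UMIs. Serping1 in CAR-like cells (-0.08) became 0.00 with every cell weighing the same and 0.12 with CAR-like cells taken by marker genes. C3 in AEF-like cells (-0.40) became 0.58, and Serping1 in the unnamed cluster (0.76) became -0.74, without cells with S100a8, Lyz2 or globin UMIs. That alternative left out 1890 Veh and 592 Doxo cells. It and the one without the cell holding most UMIs were chosen after seeing the data. In CAR-like cells C3 stayed between -0.91 and -0.55, C4b between 0.24 and 0.54 and Cfb between 0.30 and 0.88. The interval of Cfb held 0 with cells thinned to 2000 UMIs (-0.07 to 0.67).

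The median over the 9 genes in CAR-like cells (0.06) was 0.22 with equal weights, 0.30 with cells thinned, 0.43 by marker genes and 0.18 without the S100a8, Lyz2 or globin cells. In AEF-like cells (0.08) it was -0.12 thinned, -0.10 with 20 principal components, -0.08 without the top 5% of cells by UMIs and 0.39 without the S100a8, Lyz2 or globin cells. The number of genes 2-fold lower in CAR-like cells went from 0 to 1 with equal weights, without the top 5%, without the S100a8, Lyz2 or globin cells and at 1.5-fold. In BCF-like cells the number lower went from 1 to 0 with equal weights, 20 components or a resolution of 0.2, and to 3 at 1.5-fold, while the number higher went from 0 to 2 when thinned, 1 at a resolution of 0.2 and 2 at 1.5-fold. The number lower went from 0 to 1 in AEF-like cells when thinned or without the S100a8, Lyz2 or globin cells, and in osteoblast-like cells under stricter filters (1000 genes, 5% mitochondrial UMIs). The number higher in the unnamed cluster went from 0 to 1 at 1.5-fold. With the broader set of CAR-like cells taken by marker genes (794 Veh and 771 Doxo cells), 2 genes (C4b and Serping1) in place of 7 were highest in it in Veh. The cause was not tested for any of these. With a minimum of 10 UMIs, the share of all genes 2-fold higher in CAR-like cells was 5.21% and lower 4.72%. Few UMIs stand behind Cd55, Cd59a and C2 in CAR-like cells, and behind the secreted genes in osteoblast-like and endothelial-like cells.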
